A study of Mus musculus with 30 samples.

Results

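The genes described here are 7 Wnt ligands (*Wnt2*, *Wnt2b*, *Wnt4*, *Wnt5a*, *Wnt5b*, *Wnt9a* and *Wnt11*) and 3 R-spondins (*Rspo1*, *Rspo2* and *Rspo3*). They were chosen by name as secreted Wnt pathway ligands, and they are 10 of the 32386 gene symbols in the count tables. RNA was sequenced in bulk from 10 stromal populations sorted from the lamina propria of the small intestine and colon, with 3 libraries per population and 30 libraries in all. The mice were of strain C57BL6/Nrj, untreated and 8 to 10 weeks old, and the labels describe the replicates as intestines of 3 individual mice. Peyer's patches were removed and the muscularis externa was stripped, and dead cells and cells bearing hematopoietic lineage markers, CD31, BP3, EpCAM or high NCAM were gated out. The RNA was amplified to cDNA before library preparation and sequenced as single reads.

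In the small intestine, both ESAM-1+ gates took PDGFRα- cells: pericytes were PDPN- and smooth muscle cells (SMC) PDPN+. The 3 small intestinal fibroblast (FB) gates were all ESAM-1-: PDGFRα hi FB lacked CD34, Fgfr2+ FB were PDGFRα intCD34-, and CD34+ FB were PDGFRα intCD34+, a gate that holds both CD81+ and Igfbp5+ FB. Colonic pericytes were gated as in the small intestine. Colonic FB were also ESAM-1-: PDGFRα hi FB were PDPN+CD34-, Fgfr2+ FB were PDPN hiCD34+CD90-, CD90+ FB were CD34+PDPN hiCD90+, and CD81+ FB were PDPN intCD34+CD90-. Fgfr2+ FB were therefore CD34- in the small intestine and CD34+ in the colon, and PDGFRα hi FB were gated on PDGFRα in the small intestine and on PDPN in the colon, so a difference between tissues in either population cannot be told apart from the difference in gate. Libraries held from 2245052 (small intestinal Fgfr2+ FB, replicate 3) to 19096945 estimated counts, with a median of 9601683.

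Wnt proteins are lipid-modified ligands that bind Frizzled receptors with co-receptors such as LRP6, and signal either through β-catenin or through β-catenin-independent routes. R-spondins bind LGR4, LGR5 and LGR6 and remove the E3 ligases RNF43 and ZNRF3 from the cell surface, which leaves more Frizzled on the membrane and strengthens the response to Wnt. In the gut, stromal cells around the crypt are a known source of both, and the intestinal stem cells at the crypt base depend on them. Levels of 1 gene across populations are given below as CPM (counts scaled to the size of the library, normalised between libraries by TMM, the trimmed mean of M-values), and levels of different genes are compared only as TPM (transcript abundance, which allows for transcript length). A gene was called different between populations at an adjusted p under 0.05 together with a log2 fold change (log2FC) beyond 1.5. The test was edgeR's quasi-likelihood test with Benjamini-Hochberg adjustment over the 17564 genes tested. All 30 libraries were fitted in 1 model. The p-values and standard errors (SE) of a comparison therefore also carry the spread within populations outside it. In bulk RNA, fewer cells that express a gene and less RNA per cell cannot be told apart.

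By level, marker genes fitted the sort for most populations. *Pdgfra*, the receptor used in the gates, lay at 6208 to 6854 CPM in small intestinal and 2389 to 2546 CPM in colonic PDGFRα hi FB, at 547 to 1104 CPM in the other FB, and at most at 40.7 CPM in SMC and pericytes. *Notch3*, a pericyte gene, lay at 2661 to 7294 CPM in pericytes and at most at 77.4 CPM elsewhere. *Cnn1*, a smooth muscle gene, lay at 907 to 1087 CPM in SMC and at most at 1.69 CPM in PDGFRα hi FB. Smooth muscle markers together were not limited to SMC: they summed to 17401 to 21384 CPM there, 10392 to 11471 CPM in colonic and 3105 to 4575 CPM in small intestinal pericytes, 2253 to 3741 CPM in small intestinal and 1279 to 2324 CPM in colonic PDGFRα hi FB, and at most 877 CPM in the other FB. Of these markers *Acta2*, *Myh11* and *Tagln* were called higher in PDGFRα hi FB in all 4 comparisons with other FB, *Actg2* was called higher against CD81+ FB only, and *Des* was called lower against colonic Fgfr2+ FB. *Fgfr2* lay at 1469 to 1982 CPM in small intestinal and 457 to 504 CPM in colonic Fgfr2+ FB, beside 324 to 441 CPM in CD90+ FB. *Cd81* lay at 273 to 456 CPM in CD81+ FB and at 12.1 to 64.2 CPM in CD90+ FB. Not all of these differences were called. In the small intestine *Pdgfra* and *Fgfr2* were called higher in the populations named after them than in the other FB. In the colon *Pdgfra* was called in PDGFRα hi against Fgfr2+ FB and not against CD81+ FB. *Fgfr2* was not called higher in colonic Fgfr2+ than in PDGFRα hi or CD81+ FB, nor *Cd81* in CD81+ than in Fgfr2+ or CD90+ FB. *Cd34* was called lower in PDGFRα hi than in each CD34+ gate tested, and higher in small intestinal CD34+ than in Fgfr2+ FB. *Esam* was called higher and *Pdpn* lower in pericytes than in the mean of the FB in both tissues. *Igfbp5* was called higher in small intestinal PDGFRα hi and CD34+ than in Fgfr2+ FB, and not between PDGFRα hi and CD34+ FB. It was called lower in CD81+ than in colonic Fgfr2+ and CD90+ FB. Some markers were also found in other populations. *Thy1*, which encodes CD90, lay at 58.4 to 120 CPM in CD81+ FB, although these were gated as CD90-, at 159 to 255 CPM in CD90+ FB, and at 118 to 426 CPM in small intestinal pericytes. The pericyte gene *Rgs5* reached 3446 to 4087 CPM in small intestinal CD34+ FB beside 21874 to 42907 CPM in pericytes. Of the 6 pericyte genes listed, *Kcnj8* and *Abcc9* were called higher, and *Rgs5* and *Notch3* lower, in small intestinal PDGFRα hi than in Fgfr2+ FB, and *Cspg4*, *Kcnj8* and *Abcc9* higher and *Rgs5* lower than in CD34+ FB. In the colon *Abcc9* was higher and *Rgs5* lower than in Fgfr2+ FB, and *Cspg4* higher than in CD81+ FB. The 6 genes summed to 3091 to 3719 CPM in small intestinal PDGFRα hi FB, 3748 to 4406 CPM in CD34+ FB, 4070 to 7493 CPM in SMC and 33533 to 54373 CPM in pericytes.

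Markers of some cell types that the gates should remove were low. *Epcam* had at most 5 counts in any library, and the summed epithelial markers stayed at or below 74.2 CPM, the lymphatic endothelial ones at or below 107 CPM, the glial ones at or below 28.1 CPM and the mesothelial ones at or below 17 CPM. Leukocyte markers summed to 204 CPM in replicate 1 of small intestinal pericytes, of which *Cd79a* made 200 CPM, and to 146 CPM in replicate 2 of colonic pericytes, of which *Lyz2* made 93.4 CPM. Blood endothelial markers summed to 320 to 383 CPM in CD81+ FB, where *Tek* made 266 to 331 CPM while *Cdh5* stayed at or below 0.189 CPM. They also summed to 178 to 357 CPM in small intestinal pericytes, and reached 192 CPM in SMC. Against the mean of the FB, markers of epithelium, leukocytes and endothelium were called in pericytes of both tissues: *Krt20*, *Cd79a*, *Tek*, *Emcn* and *Vwf* higher and *Lyz2*, *Ccl21a* and *Pdpn* lower in the small intestine, and *Cdh1*, *Csf1r*, *Lyz2*, *Vwf* and *Lyve1* higher and *Tek* and *Pdpn* lower in the colon. Of 3 markers of interstitial cells of Cajal, *Ano1* lay at 547 to 1093 CPM in pericytes, where *Kit*, the defining marker of those cells, lay at most at 8.36 CPM. *Kit* was highest in small intestinal PDGFRα hi FB, at 7.1, 8.52 and 43.4 CPM. The 3 markers summed to 427 to 505 CPM in small intestinal PDGFRα hi FB, where *Etv1* made 416 to 469 CPM, to 230 to 291 CPM in colonic PDGFRα hi FB, and to at most 129 CPM in the other FB. Higher in PDGFRα hi FB were *Etv1* against small intestinal CD34+ FB, *Ano1* against colonic Fgfr2+ FB, and both against CD81+ FB. The part of such cells in the results was not tested.

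Some libraries stood apart from the others of their population. In small intestinal pericytes 43, 17 and 5 genes were more than 50 times above both other libraries in replicates 1, 2 and 3, and in colonic pericytes 4, 20 and 5 genes were. Replicate 3 of colonic CD81+ FB had 11 such genes, and *Rspo3* was among them. Replicate 3 of SMC had 7, and replicate 1 of small intestinal Fgfr2+ FB had 5. The biological coefficient of variation over all genes was lowest in small intestinal CD34+ FB (0.226), lay from 0.566 to 0.964 in the other FB and SMC, and reached 1.09 in colonic and 1.23 in small intestinal pericytes.

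Each of the 10 genes had 6 or more counts in at least 3 libraries and was tested. Of these, 8 differed among the 10 populations at an adjusted p under 0.05, where 26.4% of all genes tested did, and 9 had an unadjusted p under 0.05. The adjusted p was 9.85e-13 for *Wnt2b*, 4.66e-12 for *Wnt5a*, 5.96e-07 for *Rspo3*, 1.11e-06 for *Wnt4*, 3.59e-06 for *Wnt2*, 3.51e-05 for *Rspo2*, 0.00124 for *Wnt9a* and 0.00409 for *Rspo1*. *Wnt5b* (adjusted p 0.116) and *Wnt11* (0.13) were not called. *Wnt5b* was called once 1 library was left out: replicate 3 of SMC (adjusted p 0.00459) or replicate 3 of small intestinal pericytes (0.0392). It also passed with DESeq2 (0.0266) and without the filter on low counts (0.0278), and *Wnt11* did with length-scaled counts (0.0493). DESeq2 gave no adjusted p for *Rspo3* in this comparison.

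**Figure D1:**
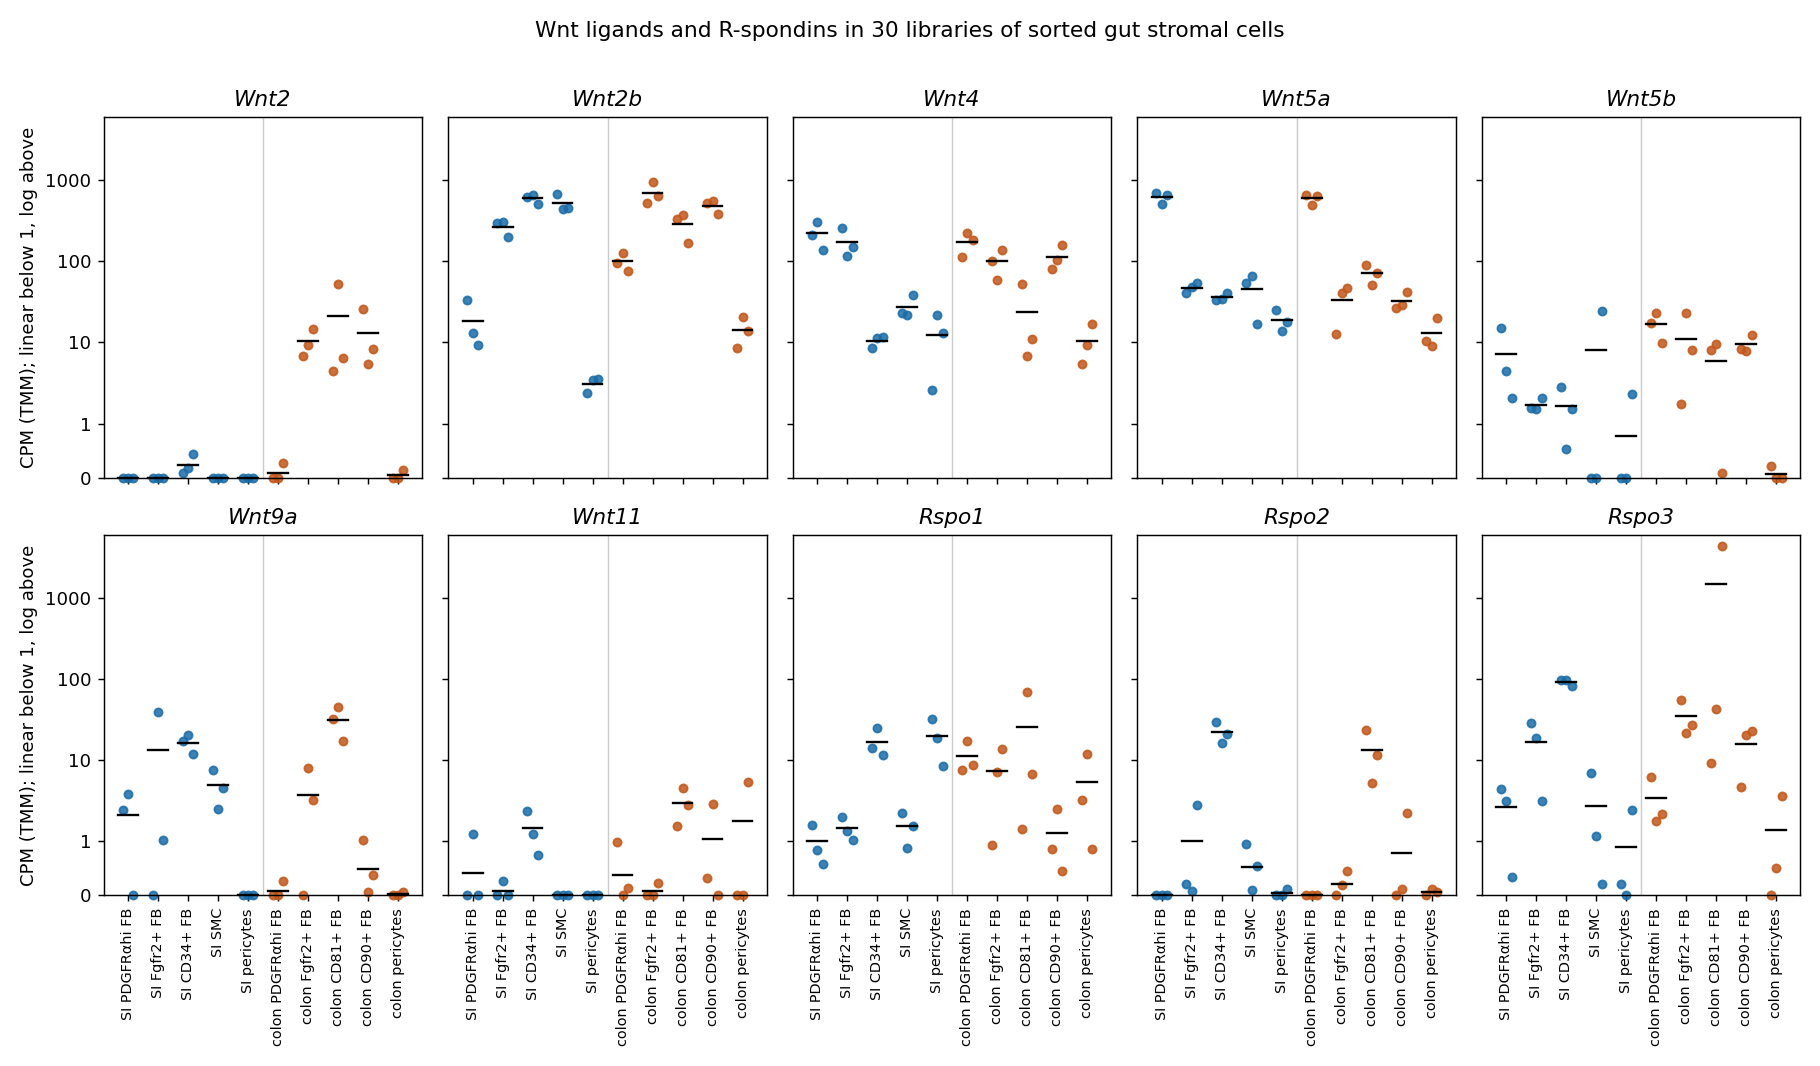
Level of each of the 10 genes in the 10 populations, in TMM-normalised CPM on a log scale; points are libraries (n = 3 per population) and bars mark the means. *Wnt5a* sits near 620 and 594 CPM in the PDGFRα hi FB of both tissues and at or below 89.9 CPM in every library of the other populations.

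Per length, 3 ligands made up most of the Wnt transcripts. Summed over the 7 ligands, the level was 440 ± 125 TPM (SD, n = 3) in small intestinal and 469 ± 60.1 TPM in colonic PDGFRα hi FB, and from 212 ± 72.9 TPM (CD81+ FB) to 479 ± 142 TPM (colonic Fgfr2+ FB) in the other FB and SMC. It was far lower in pericytes, at 8.84 ± 3.01 TPM (small intestine) and 14.8 ± 5.99 TPM (colon). *Wnt2b* made up a mean of 91.8% of the Wnt TPM in small intestinal CD34+ FB, 88.5% in SMC, 82.9% in colonic Fgfr2+ FB, 76.1% in CD90+ FB and 66.5% in CD81+ FB. PDGFRα hi FB differed from these: in the small intestine *Wnt5a* made up 73.0 ± 10.3%, *Wnt4* 23.1% and *Wnt2b* 2.3%, and in the colon 63.9 ± 11.7%, 18.5% and 14%. Small intestinal Fgfr2+ FB held 58.2% *Wnt2b* and 29.0% *Wnt4*. The R-spondins summed to 119 ± 9.95 TPM in small intestinal CD34+ FB, of which *Rspo3* made 64.1%, *Rspo1* 24.9% and *Rspo2* 11%. In CD81+ FB they summed to 1179 ± 1932 TPM, a mean that rests on *Rspo3* in replicate 3.

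**Figure D2:**
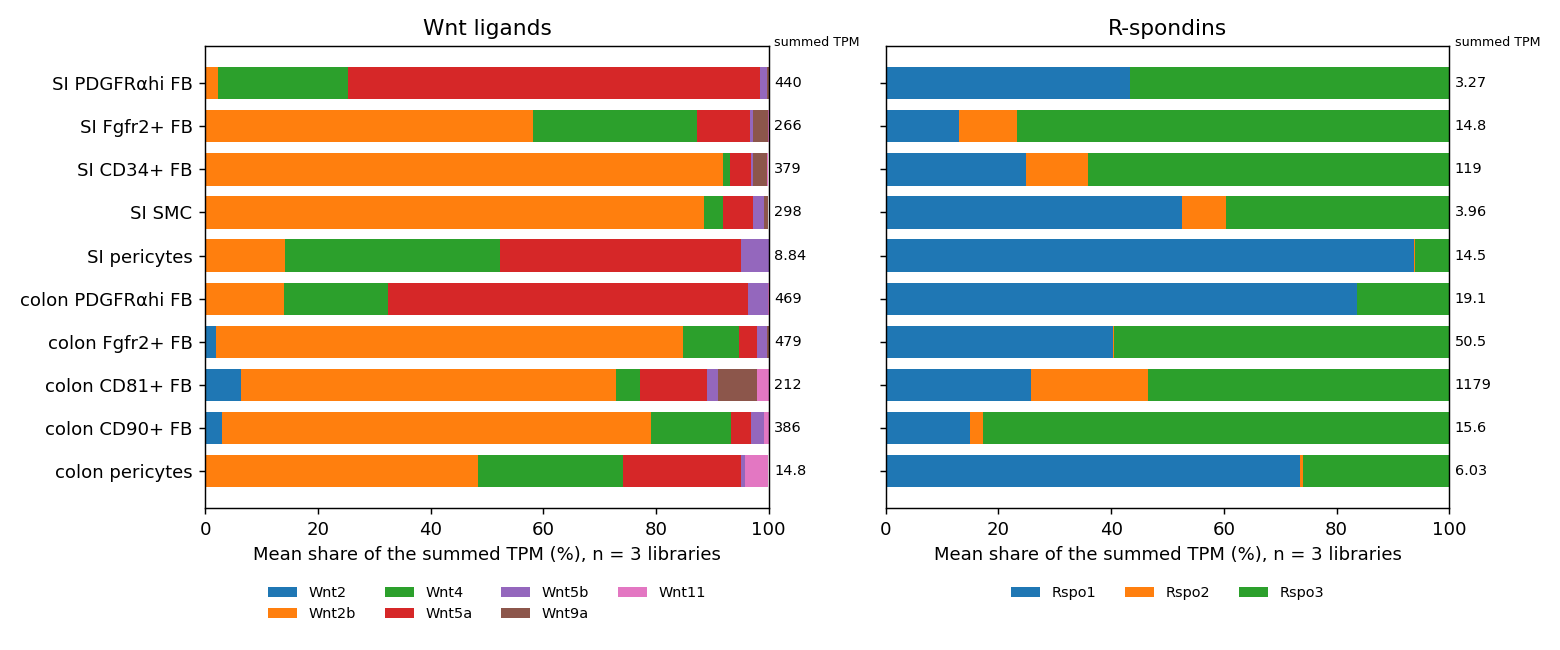
Mean share of each ligand in the summed TPM of the 7 Wnt ligands and of the 3 R-spondins, in percent, per population (n = 3). *Wnt2b* makes up 91.8% in small intestinal CD34+ FB and *Wnt5a* 73.0% in small intestinal PDGFRα hi FB.

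*Wnt5a* encodes a ligand known mainly for β-catenin-independent signalling, and it lies on chr14:28504750-28527448, plus strand (GRCm38). It stood at 689, 514 and 657 CPM in replicates 1 to 3 of small intestinal PDGFRα hi FB, and at 649, 494 and 638 CPM in those of colonic PDGFRα hi FB. These 6 libraries overlapped one another and were all above the other 24. Small intestinal Fgfr2+ FB had 40.1, 47.7 and 53.9 CPM, and CD34+ FB 32.9, 34.4 and 40.8 CPM. Colonic CD81+ FB had 89.9, 51.1 and 70.9 CPM, Fgfr2+ FB 12.6, 40.7 and 47.0 CPM, and CD90+ FB 26.5, 28.8 and 42.2 CPM. SMC were uneven, at 54.5, 65.6 and 16.9 CPM. Pericytes were lowest by their means, at 25.3, 13.8 and 17.7 CPM in the small intestine and 10.4, 8.95 and 19.8 CPM in the colon. In the order of means, the lower of the PDGFRα hi means (594 ± 86.9 CPM) was 8.40 times the next one (CD81+ FB, 70.7 ± 19.4 CPM), and the neighbours from CD81+ FB to CD90+ FB overlapped.

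In the small intestine, PDGFRα hi FB had 13.1-fold more *Wnt5a* than Fgfr2+ FB (log2FC 3.71 ± 0.48 SE, adjusted p 1.12e-05) and 17.2-fold more than CD34+ FB (4.1 ± 0.49 SE, adjusted p 1.48e-06). In the colon they had 17.7-fold more than Fgfr2+ FB (4.15 ± 0.49 SE, adjusted p 6.2e-06) and 8.40-fold more than CD81+ FB (3.07 ± 0.47 SE, adjusted p 6.5e-05). In each of these 4 comparisons all 3 libraries of PDGFRα hi FB were above all 3 of the other population. No difference in *Wnt5a* between the PDGFRα hi FB of the 2 tissues was found (log2FC 0.06 ± 0.43 SE, adjusted p 1). Pericytes were lower than the mean of the FB of their tissue, with a log2FC of -2.43 ± 0.42 SE (adjusted p 9.18e-05) in the small intestine and -2.65 ± 0.42 SE (adjusted p 2.29e-05) in the colon. Over 7 other settings these values lay from -3.34 to -2.35 and from -3.34 to -2.62, the lowest with length-scaled counts. Between SMC and pericytes *Wnt5a* did not pass (1.27 ± 0.45 SE, adjusted p 0.0628), and it did without replicate 3 of SMC (1.73, adjusted p 0.00993) or replicate 1 of pericytes (1.59, adjusted p 0.0473) and with length-scaled counts (2.06, adjusted p 0.0252).

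*Wnt4*, on chr4:137277489-137299726, plus strand, encodes a ligand known from kidney and female reproductive tract development. It stood at 213, 308 and 138 CPM in PDGFRα hi FB of the small intestine, and at 112, 220 and 181 CPM in colonic PDGFRα hi FB. Small intestinal Fgfr2+ FB had 259, 116 and 150 CPM. The libraries of these 3 populations overlapped. Colonic Fgfr2+ FB had 102, 58.4 and 139 CPM, and CD90+ FB 80.4, 103 and 160 CPM. Small intestinal CD34+ FB were low throughout, at 8.48, 11.2 and 11.6 CPM, and CD81+ FB in replicates 2 and 3, at 53.0, 6.81 and 11 CPM. SMC had 22.8, 21.7 and 38.2 CPM, and pericytes 2.57, 21.8 and 12.9 CPM in the small intestine and 5.48, 9.20 and 16.7 CPM in the colon. By means, the 5 highest populations ran from 220 ± 85.3 CPM to 99.7 ± 40.4 CPM with overlapping neighbours, a step of 3.62 times without overlap followed, and the 5 lowest populations overlapped their neighbours again, from SMC (27.5 ± 9.23 CPM) to small intestinal CD34+ FB (10.4 ± 1.69 CPM).

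The 2 comparisons of *Wnt4* with small intestinal CD34+ FB were called, with all 3 libraries on either side apart. It was 21.1-fold higher in PDGFRα hi FB (log2FC 4.40 ± 0.72 SE, adjusted p 0.000172) and 16.8-fold lower in CD34+ FB than in Fgfr2+ FB (-4.07 ± 0.71 SE, adjusted p 0.00165), where the smooth muscle markers *Acta2*, *Myh11* and *Des* and the pericyte marker *Kcnj8* were called lower as well. PDGFRα hi and Fgfr2+ FB did not pass against each other in the small intestine (0.33 ± 0.63 SE, adjusted p 0.917) or in the colon (0.78 ± 0.63 SE, adjusted p 0.945). In the colon, *Wnt4* was 7.26-fold higher in all 3 libraries of PDGFRα hi FB than in those of CD81+ FB (2.86 ± 0.67 SE, adjusted p 0.00864). That value depended on single CD81+ libraries: it was 4.27 without replicate 1 (adjusted p 0.000349), and the call was lost without replicate 2 (2.42, adjusted p 0.0623) or replicate 3 (2.50, adjusted p 0.0632). Over 7 other settings its adjusted p lay from 0.000121 to 0.061, the highest when only the populations compared were fitted. CD81+ FB against Fgfr2+ FB (-2.08 ± 0.65 SE, adjusted p 0.155) and against CD90+ FB (-2.28 ± 0.66 SE, adjusted p 0.146) did not pass, although every CD81+ library was below, and without replicate 1 of CD81+ FB both did (-3.49, adjusted p 0.00694, and -3.68, adjusted p 0.00545), as with DESeq2 (adjusted p 0.0275 and 0.017). Pericytes were lower than the mean of the FB in the small intestine (-2.56 ± 0.61 SE, adjusted p 0.0033; -3.23, adjusted p 0.00267, without replicate 2 of pericytes) and in the colon (-2.97 ± 0.62 SE, adjusted p 0.000793).

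*Wnt2b*, on chr3:104945272-104961921, minus strand, encodes a ligand that signals through β-catenin. It ran nearly opposite to *Wnt5a* among the FB. Small intestinal CD34+ FB had 612, 664 and 507 CPM, and colonic Fgfr2+ FB 516, 939 and 633 CPM. SMC had 665, 442 and 451 CPM, and CD90+ FB 524, 548 and 379 CPM. These 4 populations overlapped. Below them came CD81+ FB with 330, 371 and 170 CPM and small intestinal Fgfr2+ FB with 295, 302 and 198 CPM, which overlapped each other. In colonic PDGFRα hi FB the level was 95.3, 127 and 75.3 CPM, all below the populations named so far. The lowest levels were in small intestinal PDGFRα hi FB, at 33.5, 13.1 and 9.31 CPM, in colonic pericytes, at 8.60, 20.7 and 14 CPM, and in small intestinal pericytes, at 2.36, 3.41 and 3.57 CPM. Small intestinal pericytes were below every other library, and the other 2 of these populations overlapped each other.

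*Wnt2b* was lower in PDGFRα hi FB than in each other FB population tested, with no overlap of libraries. In the small intestine it was 14.3-fold lower than in Fgfr2+ FB (log2FC -3.83 ± 0.44 SE, adjusted p 1.5e-06) and 31.9-fold lower than in CD34+ FB (-5.00 ± 0.47 SE, adjusted p 2.14e-08); without replicate 1 of PDGFRα hi FB, the highest of the 3, these values were -4.56 (adjusted p 1.48e-06) and -5.72 (adjusted p 3.93e-08). In the colon it was 7.01-fold lower than in Fgfr2+ FB (-2.81 ± 0.42 SE, adjusted p 0.000145). Against CD81+ FB it was 2.92-fold lower (-1.55 ± 0.40 SE, adjusted p 0.02), close to the fold threshold. That call was lost without CD81+ replicate 1 (-1.44, adjusted p 0.0661) or 2 (-1.33, adjusted p 0.104), without PDGFRα hi replicate 1 (-1.52, adjusted p 0.0914) or 3 (-1.38, adjusted p 0.133), and it was kept in 2 of 7 other settings, where the log2 fold change lay from -1.54 to -1.37 and the adjusted p from 0.0061 to 0.0536.

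*Wnt2b* also differed between the tissues in PDGFRα hi FB and pericytes. In PDGFRα hi FB it was 5.34-fold lower in the small intestine than in the colon, in 3 of 3 libraries (log2FC -2.42 ± 0.42 SE, adjusted p 0.000961; -3.14, adjusted p 2e-04, without small intestinal replicate 1), and the gates of these 2 populations differ as well. Markers of other cells were called there too, with *Rgs5*, *Abcc9* and *Des* higher and *Ano1* lower in the small intestine, and the 6 pericyte genes summed to 3091 to 3719 CPM in small intestinal and 580 to 655 CPM in colonic PDGFRα hi FB. In pericytes it was 4.57-fold lower in the small intestine, in 3 of 3 libraries (-2.19 ± 0.43 SE, adjusted p 0.0034), and this call was lost when only the pericyte libraries were fitted (adjusted p 0.708, in a range of 9.46e-05 to 0.708 over 7 other settings). Smooth muscle markers were lower in small intestinal pericytes too (*Acta2*, log2FC -1.82, adjusted p 0.00586, and *Myh11*, -2.14, adjusted p 0.0118), as was *Lyz2*, while *Tek* was higher, and SMC held a mean of 520 CPM of *Wnt2b*. The part of such cells in these differences was not tested. Fgfr2+ FB did not pass (-1.39 ± 0.40 SE, adjusted p 0.0802), with all 3 small intestinal libraries below the colonic ones. The difference between PDGFRα hi and Fgfr2+ FB in that tissue difference was itself tested and did not pass (-1.02 ± 0.56 SE, adjusted p 0.721). Pericytes were lower than the mean of the FB, by -5.50 ± 0.47 SE (adjusted p 5.88e-10) in the small intestine and -4.44 ± 0.43 SE (adjusted p 4.8e-09) in the colon. Between the populations of the ESAM-1+ gate the gap was wide: *Wnt2b* was 165-fold higher in all 3 libraries of SMC than in those of small intestinal pericytes (7.36 ± 0.53 SE, adjusted p 1.04e-10). Of 5 fibroblast markers, *Dcn* and *Lum* were called higher in SMC as well, and 0 lower. These markers summed to 5134 to 9332 CPM in SMC and 1979 to 2563 CPM in small intestinal pericytes. The part of fibroblasts in this difference was not tested.

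*Wnt2*, on chr6:17988940-18030585, minus strand, encodes a β-catenin-dependent ligand, and it was found almost entirely in 3 colonic FB populations. CD81+ FB had 4.45, 52.5 and 6.41 CPM, CD90+ FB 25.6, 5.38 and 8.27 CPM, and colonic Fgfr2+ FB 6.72, 9.37 and 14.8 CPM. These populations overlapped, and in CD81+ FB replicate 2 held 833 of 967 counts. Small intestinal CD34+ FB had 1, 2 and 4 counts, colonic PDGFRα hi FB and colonic pericytes had 2 counts each, in replicate 3, and the other 4 small intestinal populations had 0 counts in all 12 libraries. Without replicate 2 of CD81+ FB, CD90+ FB had the highest mean.

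The comparisons of *Wnt2* rest on groups near 0, and their ratios are given from counts, with intervals that cover counting error only. Fitted log2FC are given beside them to show how far single libraries move them. Over a group left with 0 counts a fitted value measures no size. Against Fgfr2+ FB, colonic PDGFRα hi FB were lower (2 against 294 counts, a ratio of 119 with a 95% interval of 32.6 to 985, adjusted p 0.0371), with all 3 libraries below, and this call was lost without any 1 of the 6 libraries (adjusted p 0.0597 to 0.21), while the fitted log2FC moved from -6.69 to -9.8 without PDGFRα hi replicate 3. Against CD81+ FB the ratio was 278 (76.7 to 2296, adjusted p 0.00692), again with all 3 libraries below. The latter was lost without PDGFRα hi replicate 1 (adjusted p 0.0511), and its size depended on single libraries: the fitted log2FC was -7.73 with all of them, -5.77 without CD81+ replicate 2 (adjusted p 0.0496) and -10.84 without PDGFRα hi replicate 3 (adjusted p 0.013). Between tissues, *Wnt2* in Fgfr2+ FB was at least 20.3-fold higher in the colon, in 3 of 3 libraries, against a floor of 3 counts per library (adjusted p 0.00962); the call was lost without small intestinal replicate 1 (adjusted p 0.0677) or 2 (0.0588). Of the markers of other cells *Rgs5*, *Myh11* and *Des* were called higher in small intestinal than in colonic Fgfr2+ FB. Colonic pericytes were lower than the mean of the colonic FB (fitted log2FC -5.91, adjusted p 0.00796). Without PDGFRα hi replicate 3 the PDGFRα hi FB held 0 counts, so the mean of the FB had no usable estimate. The loss of the call there (-5.13) is therefore no test of it. The call was kept without pericyte replicate 3 (-8.44, adjusted p 0.0126), where the pericytes held 0 counts.

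Promoter sequences of 250 bases before to 50 bases after a gene's start were matched for 7 of the 10 genes in RefSeq (GRCm38.p6), and not for *Wnt5a*, *Rspo2* or *Rspo3*. The start is the one of the promoter table, and for *Wnt2*, *Wnt2b* and *Wnt4* it lies inside the gene positions given with each gene. The promoters of *Wnt2*, *Wnt2b* and *Wnt4* are shown because these ligands differ so widely among the FB populations: *Wnt2* at chr6:18030396-18030695 (minus strand), *Wnt2b* at chr3:104961660-104961959 (minus strand) and *Wnt4* at chr4:137277385-137277684 (plus strand). Each is written 5′ to 3′, with capitals for matches on either strand of the TCF/LEF core CTTTGA or the GC box GGGCGG, which can overlap one another.
Wnt2: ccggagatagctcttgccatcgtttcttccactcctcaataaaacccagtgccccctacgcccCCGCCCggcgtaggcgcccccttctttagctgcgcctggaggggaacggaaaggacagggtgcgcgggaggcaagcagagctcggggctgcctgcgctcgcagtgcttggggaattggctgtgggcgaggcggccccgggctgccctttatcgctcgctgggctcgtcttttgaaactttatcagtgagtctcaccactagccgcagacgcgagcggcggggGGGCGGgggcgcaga
Wnt2b: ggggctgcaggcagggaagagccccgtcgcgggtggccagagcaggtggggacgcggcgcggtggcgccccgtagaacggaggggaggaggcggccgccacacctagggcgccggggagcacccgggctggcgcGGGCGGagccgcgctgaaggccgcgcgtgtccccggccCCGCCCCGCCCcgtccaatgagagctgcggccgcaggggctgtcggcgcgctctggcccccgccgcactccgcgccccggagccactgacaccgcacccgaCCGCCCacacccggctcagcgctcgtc
Wnt4: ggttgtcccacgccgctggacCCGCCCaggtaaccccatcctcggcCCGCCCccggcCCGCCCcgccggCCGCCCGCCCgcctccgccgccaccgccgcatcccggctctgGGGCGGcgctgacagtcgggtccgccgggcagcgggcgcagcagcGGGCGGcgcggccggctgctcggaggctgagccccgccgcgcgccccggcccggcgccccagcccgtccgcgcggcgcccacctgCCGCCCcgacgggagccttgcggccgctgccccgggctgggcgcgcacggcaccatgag
The GC box matched 2 times in *Wnt2*, 4 times in *Wnt2b* and 8 times in *Wnt4*, and the TCF/LEF core in none of the 3. Over all 32851 promoters of that length, 35.7% held the GC box and 16% the TCF/LEF core. Of the 10 promoters listed for the 7 matched genes, 8 held the GC box and 2 the TCF/LEF core, 1 each of *Wnt5b* and *Wnt11*. A match describes the letters in this window and nothing more.

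*Wnt9a*, on chr11:59306928-59333552, plus strand, encodes a ligand that acts through β-catenin in several tissues. It stood at 31.7, 45.4 and 17.0 CPM in CD81+ FB and at 17.1, 20.3 and 11.9 CPM in small intestinal CD34+ FB, the gate that includes small intestinal CD81+ FB. These 6 libraries overlapped. Small intestinal Fgfr2+ FB were uneven, at 0, 38.7 and 1.04 CPM. SMC had 7.60, 2.50 and 4.51 CPM, small intestinal PDGFRα hi FB 2.41, 3.84 and 0 CPM, and colonic Fgfr2+ FB 0, 7.91 and 3.22 CPM. CD90+ FB had at most 1.04 CPM, colonic PDGFRα hi FB 2 counts in all and colonic pericytes 1 count, and small intestinal pericytes had 0 counts in all 3 libraries.

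*Wnt9a* was lower in all 3 libraries of colonic PDGFRα hi FB than in those of CD81+ FB, with 2 against 1330 counts (ratio 382, 95% interval 106 to 3157, adjusted p 0.0249). This call was lost without CD81+ replicate 2 (adjusted p 0.0538) and without PDGFRα hi replicate 1 or 2 (0.135 each) or 3 (0.0589). The fitted log2FC was -8.3 with all libraries, -7.93 without CD81+ replicate 2, and -7.75 and -7.77 without PDGFRα hi replicates 1 and 2. Without PDGFRα hi replicate 3, which held the 2 counts, it was -11.4, a fit over 0 counts that measures no size. SMC were at least 10.5-fold higher than small intestinal pericytes in 3 of 3 libraries (adjusted p 0.0319), which was lost without pericyte replicate 1 (0.0768), 2 (0.0808) or 3 (0.0655) or SMC replicate 1 (0.0592) and when only the populations compared were fitted (0.0795, in a range of 0.00244 to 0.0795 over 7 other settings). Small intestinal pericytes, with 0 counts, were lower than the mean of the FB (adjusted p 0.0106; 0.0193 without Fgfr2+ replicate 2). In the colon the same comparison did not pass (adjusted p 0.068) and did without Fgfr2+ replicate 1 (0.0459), with DESeq2 (0.0136), without the filter on low counts (0.0334) and when only the populations compared were fitted (0.0352).

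*Wnt5b*, on chr6:119432531-119544347, minus strand, encodes a close relative of *Wnt5a*, and was spread over more populations. Colonic PDGFRα hi FB had 17.2, 23.0 and 9.91 CPM, and small intestinal PDGFRα hi FB 14.9, 4.46 and 2.07 CPM. Colonic Fgfr2+ FB had 1.76, 23.3 and 7.99 CPM, CD90+ FB 8.23, 7.86 and 12.5 CPM, and CD81+ FB 8.03, 9.59 and 0.0833 CPM. All neighbours in the order of means overlapped, and SMC had 0, 0 and 24.3 CPM. Small intestinal Fgfr2+ FB had at most 2.07 CPM, CD34+ FB 2.86 CPM and small intestinal pericytes 2.34 CPM in any library. Colonic pericytes had 2, 0 and 0 counts, below the mean of the colonic FB (adjusted p 0.0181), and this call was lost without pericyte replicate 2 or 3 (0.075 each) and kept without replicate 1 (0.03). SMC against pericytes did not pass (adjusted p 0.236) and did without pericyte replicate 3 (0.0432).

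*Wnt11*, on chr7:98835112-98855195, plus strand, encodes a ligand known for β-catenin-independent signalling, and it was scarce in every library, with at most 74 counts. Over all libraries, 31.56% of the *Wnt11* counts lay on a processed transcript and 12.74% on a nonsense-mediated decay transcript. CD81+ FB had 1.56, 4.48 and 2.83 CPM, and small intestinal CD34+ FB 2.38, 1.22 and 0.752 CPM, with counts in all 6 libraries. Replicate 3 of colonic pericytes had 5.32 CPM while replicates 1 and 2 had 0. CD90+ FB had 0.331, 2.90 and 0 CPM, the other FB had at most 1.24 CPM in any library, and small intestinal pericytes and SMC had 0 counts. edgeR called *Wnt11* in none of the comparisons between populations. Exons of *Wnt11*, *Wnt5a* and *Rspo3* overlap a gene on the opposite strand, *Gm8398* by 364 bases, *Gm2670* by 358 and *Gm48159* by 404. Whether the counting used the strand is not stated, so reads from the overlapping stretch cannot be assigned to 1 gene of such a pair from these data. The share of a gene's 31-base words that also occur in other genes was 12.17% for *Rspo3*, 8.02% for *Wnt11*, 6.62% for *Wnt4* and 4.18% for *Wnt5a*.

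*Rspo1*, on chr4:124986430-125009099, plus strand, had high single libraries in several populations. Small intestinal pericytes had 31.9, 18.9 and 8.49 CPM, and small intestinal CD34+ FB 14, 25.0 and 11.6 CPM. CD81+ FB had 1.40, 68.4 and 6.83 CPM, so that their mean, the highest at 25.6 ± 37.2 CPM, rests on replicate 2. Without that library small intestinal pericytes (19.8 ± 11.7 CPM) had the highest mean. Colonic PDGFRα hi FB had 7.48, 17.4 and 8.82 CPM, colonic Fgfr2+ FB 0.930, 7.22 and 13.9 CPM, and colonic pericytes 3.23, 12 and 0.862 CPM. The neighbours among these 6 populations overlapped, and the other 4 populations had at most 2.48 CPM in any library. Per length, *Rspo1* made up 93.7% of the 14.5 R-spondin TPM of small intestinal pericytes, 83.7% of the 19.1 TPM of colonic PDGFRα hi FB and 73.6% of the 6.03 TPM of colonic pericytes, and its highest mean TPM was in small intestinal CD34+ FB (29.9 ± 11.6).

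*Rspo1* was the only 1 of the 10 genes called higher in small intestinal pericytes than in the mean of the small intestinal FB (log2FC 2.74 ± 0.79 SE, adjusted p 0.0139), where all 3 pericyte libraries were above those of PDGFRα hi and Fgfr2+ FB and overlapped those of CD34+ FB. The call was lost without pericyte replicate 1 (2.19, adjusted p 0.103) and with length-scaled counts (2.40, adjusted p 0.0525, in a range of 0.00372 to 0.0525 over 7 other settings). Against pericytes, SMC were 12.7-fold lower in all 3 libraries (-3.67 ± 1.17 SE, adjusted p 0.0414). That call was lost without pericyte replicate 1 (-3.08, adjusted p 0.117) or 2 (-3.70, adjusted p 0.0534) and without SMC replicate 1 (-4.03, adjusted p 0.0789), 2 (-3.39, adjusted p 0.134) or 3 (-3.62, adjusted p 0.121), and 5 of 7 other settings kept it (adjusted p 0.00264 to 0.186). PDGFRα hi against CD34+ FB of the small intestine did not pass (-4.06 ± 1.2 SE, adjusted p 0.0593), with all 3 libraries below, and passed with DESeq2 (adjusted p 0.00219), with upper-quartile normalization (0.0464) and when only the populations compared were fitted (0.00165). Colonic PDGFRα hi FB stood above small intestinal ones in all 3 libraries without passing (-3.47 ± 1.17 SE, adjusted p 0.261), and passed with DESeq2 (0.0295) and when only the populations compared were fitted (0.0306). Without replicate 1 of CD81+ FB, those cells passed against CD90+ FB (4.89, adjusted p 0.0327, beside 4.33, adjusted p 0.119, with all libraries).

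*Rspo2*, on chr15:43020794-43170826, minus strand, was found mainly in 2 populations. It stood at 29.6, 16.2 and 21 CPM in small intestinal CD34+ FB and at 23.5, 5.23 and 11.6 CPM in CD81+ FB. The PDGFRα hi FB of both tissues had 0 counts in all 6 libraries. All other libraries had at most 2.77 CPM, and the mean of CD81+ FB (13.4 ± 9.26 CPM) was 13.1 times the next one without overlap. PDGFRα hi FB were at least 73.1-fold lower than CD34+ FB in the small intestine (adjusted p 0.00381) and at least 34.8-fold lower than CD81+ FB in the colon (adjusted p 0.00746), with all 3 libraries at 0 in both. The colonic bound was not computed again without single libraries. The colonic call was kept without CD81+ replicate 1, the highest CD81+ library (adjusted p 0.0189). CD34+ against Fgfr2+ FB of the small intestine did not pass (4.61 ± 1.63 SE, adjusted p 0.247), nor did CD81+ against Fgfr2+ FB (5.91 ± 1.73 SE, adjusted p 0.123) or CD90+ FB (4.09 ± 1.56 SE, adjusted p 0.361) of the colon, although in each the libraries of the first population were all above. DESeq2 called CD81+ against Fgfr2+ FB (adjusted p 0.00896). It also called PDGFRα hi against Fgfr2+ FB of the small intestine (0 against 12 counts, at least 3.35-fold lower), with an adjusted p of 0.0416 beside 0.136 with edgeR. Of those 12 counts 8 lay in replicate 3, at 2.77 CPM beside 0.209 and 0.0902 CPM in replicates 1 and 2. The bound of 3.35 therefore rests on that library.

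*Rspo3*, on chr10:29452416-29535867, minus strand, encodes the R-spondin best known as a stromal signal to crypt stem cells. It was even in small intestinal CD34+ FB, at 98.1, 95.9 and 81.9 CPM, and uneven in CD81+ FB, at 9.20, 42.8 and 4348 CPM. Replicate 3 of CD81+ FB held 52197 counts of *Rspo3*, 0.405% of that library and rank 22 among its genes, and it lay above all other 29 libraries. Colonic Fgfr2+ FB had 55.7, 21.8 and 27.1 CPM, CD90+ FB 4.68, 20.4 and 23.0 CPM, and small intestinal Fgfr2+ FB 28.6, 18.9 and 3.11 CPM. PDGFRα hi FB were low, with 4.42, 3.1 and 0.345 CPM in the small intestine and 6.25, 1.79 and 2.17 CPM in the colon. SMC had 6.86, 1.16 and 0.220 CPM, small intestinal pericytes 0.214, 0 and 2.46 CPM, and colonic pericytes 0, 0.504 and 3.59 CPM. With replicate 3 the mean of CD81+ FB was the highest (1467 ± 2495 CPM), and without it that of small intestinal CD34+ FB (92 ± 8.76 CPM) was.

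Colonic PDGFRα hi FB were lower in *Rspo3* than CD81+ FB in all 3 libraries (log2FC -8.74 ± 1.80 SE, adjusted p 0.00242), and without CD81+ replicate 3 the value was -2.91 and did not pass (adjusted p 0.267); without PDGFRα hi replicate 1 it was -9.53 (adjusted p 0.0151). It was also lost when only the populations compared were fitted (adjusted p 0.0525, in a range of 5.55e-06 to 0.0525 over 6 other settings). CD81+ FB did not pass against Fgfr2+ FB (5.39 ± 1.54 SE, adjusted p 0.103) or CD90+ FB (6.52 ± 1.62 SE, adjusted p 0.0598), with overlapping libraries. They did once a low CD81+ library was left out: without replicate 1 the values were 5.98 (adjusted p 0.0261) and 7.10 (adjusted p 0.0115), and without replicate 2 the latter was 7.09 (adjusted p 0.0416). Without the filter on low counts both passed (adjusted p 0.00519 and 0.0012). In the small intestine, PDGFRα hi against CD34+ FB did not pass (-5.13 ± 1.55 SE, adjusted p 0.068), with all 3 libraries below, and passed without the filter on low counts (0.0031) and when only the populations compared were fitted (0.000895). In the colon, PDGFRα hi against Fgfr2+ FB did not pass either (-3.35 ± 1.44 SE, adjusted p 0.458), again with all 3 libraries below, and did when only the populations compared were fitted (0.0159).

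Colonic pericytes were lower than the mean of the colonic FB in *Rspo3* (-4.80 ± 1.45 SE, adjusted p 0.0193). The value was -3.39 without CD81+ replicate 3 (adjusted p 0.0499) and -7.36 without pericyte replicate 3 (adjusted p 0.0161), and the call was lost without pericyte replicate 1 (-4.25, adjusted p 0.0788) or 2 (-4.44, adjusted p 0.0864). The same difference in the small intestine did not pass (-4.06 ± 1.47 SE, adjusted p 0.0506), and it did without replicate 3 of Fgfr2+ FB (-4.22, adjusted p 0.0454), of PDGFRα hi FB (-4.23, adjusted p 0.0458) or of pericytes (-7.43, adjusted p 0.0307), without the filter on low counts (0.00648), with length-scaled counts (0.0494) and when only the populations compared were fitted (0.0284). DESeq2 gave no adjusted p for *Rspo3* in either of the colonic comparisons called here. In the counts of genes called by DESeq2, a gene without an adjusted p is not counted as called.

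**Figure D3:**
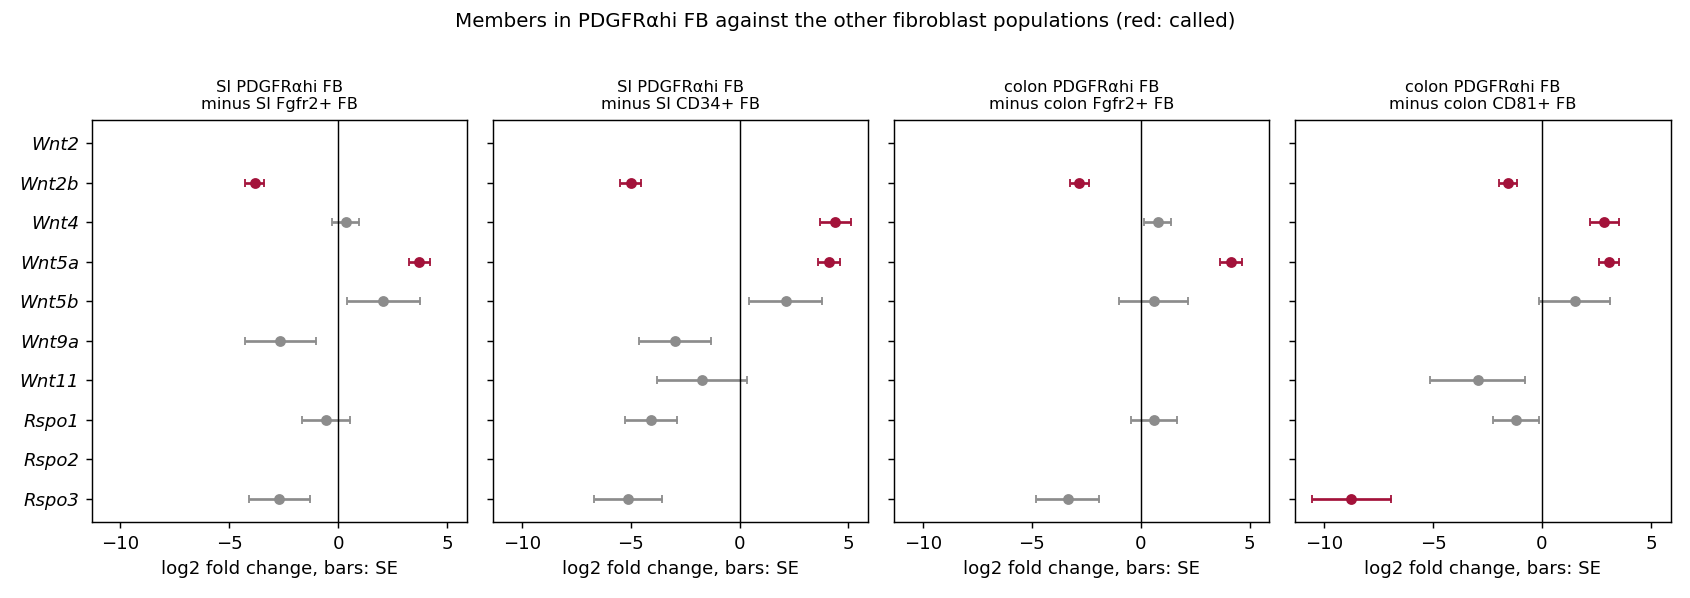
Log2 fold change of each gene in PDGFRα hi FB against the other FB populations of the same tissue, with bars for the SE (model over 30 libraries) and red for called genes; genes with 3 or fewer counts in either population have no point. *Wnt5a* is to the right of 0 in all 4 panels, at 3.71, 4.1, 4.15 and 3.07, and *Wnt2b* to the left, at -3.83, -5.00, -2.81 and -1.55.

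Counted over the 10 genes, PDGFRα hi FB differed from the other FB in both directions. Against small intestinal Fgfr2+ FB 1 gene was higher (*Wnt5a*), beside 1.17% of all genes tested, and 1 lower (*Wnt2b*), beside 1.36%. Against small intestinal CD34+ FB 2 were higher (*Wnt4* and *Wnt5a*; 1.21% of all genes) and 2 lower (*Wnt2b* and *Rspo2*; 2.02%). Against colonic Fgfr2+ FB 1 was higher (*Wnt5a*; 0.495%) and 2 lower (*Wnt2* and *Wnt2b*; 0.837%). Against CD81+ FB 2 were higher (*Wnt4* and *Wnt5a*; 1.76%) and 5 lower (*Wnt2*, *Wnt2b*, *Wnt9a*, *Rspo2* and *Rspo3*; 2.17%), and the total of 7 fell to 4 without CD81+ replicate 2 and to 4 without PDGFRα hi replicate 1.

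Among the other FB, fewer of the 10 genes passed. In small intestinal CD34+ against Fgfr2+ FB, edgeR called 0 genes higher (0.837% of all genes; 4 had an unadjusted p under 0.05, and DESeq2 called 1, *Rspo1*) and 1 lower (*Wnt4*; 0.376%). In CD81+ against colonic Fgfr2+ FB edgeR called 0 of 10, beside 0.939% of all genes, where 6 had an unadjusted p under 0.05 and DESeq2 called 2 (*Rspo2* and *Wnt4*); without CD81+ replicate 1 it called 2. In CD81+ against CD90+ FB edgeR called 0 of 10, beside 0.621%, where 6 had an unadjusted p under 0.05 and DESeq2 called 3 (*Rspo1*, *Wnt9a* and *Wnt4*); it called 3 without CD81+ replicate 1 and 1 without replicate 2.

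In pericytes against the mean of the FB in the small intestine 1 gene was higher (*Rspo1*), beside 9.48% of all genes, and 4 lower (*Wnt2b*, *Wnt4*, *Wnt5a* and *Wnt9a*), beside 7.08%. *Wnt2* (SE 2902.87) and *Rspo2* (SE 201.32) had no usable estimate there, nor had *Rspo2* in the colon (SE 136.44). In each case an FB population in the mean held 0 counts, so these could not be called. In the colon edgeR called 0 higher (9.28% of all genes; 0 had an unadjusted p under 0.05 and DESeq2 called 0) and 6 lower (*Wnt2*, *Wnt2b*, *Wnt4*, *Wnt5a*, *Wnt5b* and *Rspo3*; 6.70%). SMC against small intestinal pericytes had 2 higher (*Wnt2b* and *Wnt9a*; 5.36%) and 1 lower (*Rspo1*; 4.80%), and the total of 3 fell to 1 without pericyte replicate 2 and to 1 without SMC replicate 1.

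Between the tissues, small intestine minus colon, each population tested had 1 gene lower and 0 higher. In PDGFRα hi FB the gene was *Wnt2b* (0.621% of all genes were lower and 0.336% higher); of the other direction 1 gene had an unadjusted p under 0.05 and DESeq2 called 0. In Fgfr2+ FB it was *Wnt2* (0.939% lower and 0.512% higher), where 0 had an unadjusted p under 0.05 in the other direction and DESeq2 called 0, and edgeR called 0 in either direction without small intestinal replicate 1 and without replicate 2. In pericytes it was *Wnt2b* (2.73% lower and 2.96% higher), with 0 at an unadjusted p under 0.05 in the other direction and 0 called by DESeq2. For the difference between PDGFRα hi and Fgfr2+ FB in the tissue difference, edgeR called 0 of 10, beside 0.660% of all genes, 0 had an unadjusted p under 0.05 and DESeq2 called 0. *Wnt2* (SE 12440.52) and *Rspo2* (SE 4345.47) had no usable estimate there, since some of these populations held 0 counts, so neither could be called.

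Of 13 other Wnt and R-spondin genes 4 had enough counts to be tested (*Wnt3*, *Wnt6*, *Wnt8a* and *Wnt16*), while *Wnt3a*, *Wnt7b* and *Wnt10a* had at most 2 counts in any library. *Wnt8b* had 1299 counts (90.6 CPM) in replicate 1 of small intestinal Fgfr2+ FB and 0 in the other libraries of that population. *Wnt16* had 0.558, 32.7 and 7.26 CPM in small intestinal Fgfr2+ FB and at most 5.63 CPM in any other library. With edgeR *Wnt8a* was higher in pericytes than in the mean of the FB in both tissues (adjusted p 0.0166 and 0.0227), and each rests mainly on 1 library: 8.14, 0 and 0.861 CPM in the small intestine and 0.215, 7.31 and 0 CPM in the colon. DESeq2 called *Wnt8a* in neither tissue and *Wnt16* in both, where the latter did not pass with edgeR (log2FC -3.47, adjusted p 0.0624, and -3.41, adjusted p 0.0774). Of the 4 genes for Wnt secretion (*Porcn*, *Wls*, *Tmed2* and *Tmed5*), which lipidate or carry Wnt proteins, all were tested and 0 were called by edgeR in the 7 FB comparisons (1 gene in each of 3 comparisons at an unadjusted p under 0.05; DESeq2 called 0), beside 0.273 to 2.17% of all genes per direction.

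Wnt antagonists differed with PDGFRα hi FB in both directions, and 12 of the 15 listed were tested. Against small intestinal Fgfr2+ FB 1 was higher and 2 lower (*Wif1*; *Sfrp1* and *Frzb*; 1.17% and 1.36% of all genes), with a median log2FC of 0.28 beside 0.01 for all genes, and against CD34+ FB 1 was higher and 5 lower (*Wif1*; *Dkk2*, *Sfrp1*, *Sfrp4*, *Frzb* and *Apcdd1*; 1.21% and 2.02%), with -0.21 beside 0. Against colonic Fgfr2+ FB 1 was higher and 1 lower (*Wif1*; *Sfrp1*; 0.495% and 0.837% of all genes, median 0.07 beside -0.02), and against CD81+ FB 1 higher and 2 lower (*Wif1*; *Sfrp1* and *Sfrp4*; 1.76% and 2.17%, median 0.77 beside -0.08). *Wif1*, a secreted Wnt-binding inhibitor, followed *Wnt5a*: it had 6.16, 19.6 and 10.8 CPM in small intestinal and 23.2, 36.1 and 28.0 CPM in colonic PDGFRα hi FB, and at most 0.346 CPM in any other library. PDGFRα hi FB exceeded CD34+ FB of the small intestine at least 42.1-fold (adjusted p 0.00173) and colonic Fgfr2+ FB at least 93.2-fold (adjusted p 0.002), with all 3 libraries above in both.

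*Sfrp1*, a secreted Frizzled-related inhibitor, went the other way. It had 27.9, 35.6 and 29.2 CPM in PDGFRα hi FB of the small intestine, beside 4394, 4528 and 2675 CPM in Fgfr2+ and 8010, 9457 and 5927 CPM in CD34+ FB. Colonic PDGFRα hi FB had 80.3, 165 and 145 CPM, beside 3225, 3410 and 3704 CPM in Fgfr2+ and 1367, 1588 and 1194 CPM in CD81+ FB. PDGFRα hi FB were below in every library of each comparison, by log2 fold changes of -6.97 (adjusted p 1.1e-08), -7.98 (8.99e-10), -4.73 (2.57e-06) and -3.41 (3.24e-05). Per length, *Sfrp1* was the most abundant antagonist listed in small intestinal CD34+ FB (3378 TPM), while in PDGFRα hi FB *Dkk3* stood above it, at 511 against 13.2 TPM (small intestine) and 710 against 61 TPM (colon). Small intestinal pericytes were lower than the mean of the FB in 5 of the 12 antagonists tested (*Dkk2*, *Dkk3*, *Sfrp1*, *Frzb* and *Kremen1*), beside 7.08% of all genes, and colonic ones in 4 of 12 (*Dkk3*, *Sfrp1*, *Sfrp2* and *Sfrp4*), beside 6.70%.

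Of 16 Wnt receptors and co-receptors 15 were tested, and edgeR called 0 in PDGFRα hi against Fgfr2+ FB of the small intestine (1.17% of all genes higher and 1.36% lower), where 4 had an unadjusted p under 0.05 and DESeq2 called 1 (*Fzd2*). *Fzd4*, a Frizzled receptor, was lower in PDGFRα hi FB in the other 3 comparisons. It had 3.89, 4.51 and 12.2 CPM in small intestinal PDGFRα hi and 104, 77.8 and 72.2 CPM in CD34+ FB (log2 fold change -3.63, adjusted p 8.95e-06). In the colon PDGFRα hi FB had 25, 16.5 and 20.1 CPM, Fgfr2+ FB 119, 160 and 177 CPM (-2.89, adjusted p 0.000415) and CD81+ FB 187, 279 and 230 CPM (-3.50, adjusted p 1.46e-05). The libraries did not overlap in any of the 3. *Fzd1* was also lower against small intestinal CD34+ FB (-3.21, adjusted p 0.000883), and *Lrp6* against CD81+ FB (-2.05, adjusted p 0.00176), each with all 3 libraries below. That makes 2 of 15 lower against CD34+ FB (2.02% of all genes), 1 against colonic Fgfr2+ FB (0.837%) and 2 against CD81+ FB (2.17%). In CD81+ replicates 1 to 3 the 16 receptors summed to 3832, 2772 and 1833 CPM, with *Lrp6* the largest part in replicate 1 only. How far the call of *Lrp6* rests on that library was not tested. *Fzd1* and *Fzd4* were also higher in small intestinal CD34+ than in Fgfr2+ FB (2.47, adjusted p 0.0231, and 2.35, adjusted p 0.00408; 2 of 15, beside 0.837%). Of the 5 R-spondin receptors and their E3 ligases (*Lgr4*, *Lgr5*, *Lgr6*, *Rnf43* and *Znrf3*), all were tested and edgeR called 0 in the 7 FB comparisons (1 gene in 1 comparison at an unadjusted p under 0.05; DESeq2 called 0), beside 0.273 to 2.17% of all genes per direction; per length *Znrf3* was the most abundant in small intestinal CD34+ FB (18.5 ± 2.34 TPM). *Lgr6* was higher in small intestinal pericytes than in the mean of the FB (2.04, adjusted p 0.03), with 3.21, 5.3 and 45.3 CPM, of which replicate 3 stands apart.

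Of 14 target genes of Wnt/β-catenin signalling 12 were tested. In PDGFRα hi FB 2 were higher than in small intestinal Fgfr2+ FB (*Nkd1* and *Myc*), beside 1.17% of all genes, and 1 higher and 1 lower than in CD34+ FB (*Ccnd1*; *Apcdd1*), beside 1.21% and 2.02%. In the colon 1 was higher than in Fgfr2+ FB (*Ccnd1*), beside 0.495%, and 3 higher than in CD81+ FB (*Lef1*, *Tnfrsf19* and *Ccnd1*), beside 1.76%. The medians in these comparisons were -0.01, -0.45, 0.08 and 1.16, beside 0.01, 0, -0.02 and -0.08 for all genes. *Ccnd1*, which encodes cyclin D1, had 263, 319 and 436 CPM in small intestinal PDGFRα hi and 46, 63.3 and 86.9 CPM in CD34+ FB (2.37, adjusted p 0.000381). In the colon it had 288, 200 and 374 CPM in PDGFRα hi, 53.6, 61.7 and 71.3 CPM in Fgfr2+ (2.21, adjusted p 0.00234) and 9.28, 15.5 and 12.5 CPM in CD81+ FB (4.53, adjusted p 1.37e-07), again without overlap. *Axin2*, a general readout of the pathway, had 73.6, 86.5 and 57.6 CPM in small intestinal and 10.4, 19.5 and 8.69 CPM in colonic PDGFRα hi FB and was called in neither tissue against the other FB. Small intestinal pericytes had 2 targets above the mean of the FB (*Lef1* and *Myc*, beside 9.48% of all genes) and 1 below (*Tnfrsf19*, 7.08%). Colonic ones had 3 above (*Nkd1*, *Ccnd1* and *Myc*, 9.28%) and 0 below (6.70%). The targets summed to 686 to 818 CPM in small intestinal and 592 to 1262 CPM in colonic pericytes. In PDGFRα hi FB they summed to 512 to 655 and 434 to 616 CPM.

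As a description, the log2 CPM of each of the 10 genes was correlated with that of every gene tested over the 30 libraries, which come from 10 populations and are not independent points. The genes most like *Wnt5a* were *Cacna2d3* (r = 0.901), *Wif1* (0.891) and *Bmp3* (0.889). For *Wnt2b* they were *Ncam1* (0.929), *Serpina3n* (0.924) and *Fmo2* (0.924), and for *Wnt4* they were *Bmp7* (0.829), *Col24a1* (0.823) and *Gja1* (0.817). *Wnt2* was most like *Syndig1* (0.931), *Frmpd4* (0.92) and *Sfrp2* (0.84), *Wnt9a* like *Ighm* (0.825), *Dapk1* (0.781) and *Trpv3* (0.76), and *Wnt5b* like *Rbp4* (0.785), *Gas2* (0.754) and *Trim16* (0.74). Among the R-spondins, *Rspo3* was most like *Flrt3* (0.832), *C3* (0.816) and *Gfpt2* (0.814), *Rspo2* like *Ackr4* (0.866), *Vmn1r-ps111* (0.857) and *Pthlh* (0.846), and *Rspo1* like *Map1a* (0.692), *Bhlhb9* (0.673) and *Piezo2* (0.656). *Wnt11* was most like *Fmnl1* (0.767), *Eipr1* (0.706) and *Fgf18* (0.702). Among pairs of the 10 genes r was highest for *Wnt9a* and *Rspo2* (0.698) and *Rspo2* and *Rspo3* (0.63), and lowest for *Wnt4* and *Rspo1* (-0.526).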

How the data were processed

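The authors trimmed reads with Trim Galore 0.4.0, checked them with FastQC 0.11.2 and pseudo-aligned them to mouse transcripts with kallisto 0.42.5; the release of the transcript set is not given in the sources used here. The deposited values are estimated counts (expected counts) per transcript, and the authors' files also give TPM (transcript abundance per length) and effective lengths for each. Of 98492 transcripts 97204 were matched to GENCODE genes, and 97.83 to 99.21% of a library's counts lay on them. Estimated counts were summed by gene symbol and rounded; TPM were rescaled over matched genes, since 1 transcript took 14.79 to 55.91% of the TPM, in 28 libraries one without a gene.

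Genes with 6 or more counts in at least 3 libraries were tested in R 4.3.3 with edgeR 4.0.16 (TMM normalization, quasi-likelihood test, 1 model of the 30 libraries, Benjamini-Hochberg adjustment; limma 3.58.1 loaded). Alternatives were DESeq2 1.42.0, no filter, normalization by RLE or by the upper quartile, only the populations compared, a replicate block, length-scaled TPM counts, a log2 fold threshold of 1, and, for the 10 genes, leaving out each library. The code was tested on simulated data. Gene lists were described by counts and medians. Named were the 10 genes, for each of them the 3 genes most correlated with it, and listed pathway genes by 3 rules. These were called in an FB comparison, most abundant, or under 3 counts in every library. Calls of listed pathway genes in pericytes or SMC were not all described. Those left out included calls of *Fzd1*, *Fzd2*, *Fzd4*, *Fzd5*, *Ror1*, *Ror2*, *Ptk7*, *Tmed2* and *Tmed5*. Further ones, in SMC against pericytes, were of *Lef1*, *Nkd1*, *Tnfrsf19*, *Ccnd1*, *Myc*, *Dkk3*, *Sfrp1* and *Sfrp4*. *Axin2*, *Wnt8b* and the marker genes given by value were chosen after their values were seen. The members and lists were chosen with earlier results of these data known.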

Additional observations from a re-analysis of the deposited data

How the results depend on the processing

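No call reversed its direction under any alternative. Over all left-out libraries 493 of 528 calls were kept, 35 lost and 15 gained. DESeq2 kept 38 of 39 calls and gained 11, RLE normalization kept 41 of 42, upper-quartile normalization 41 (1 gained), no filter 42 (6 gained), length-scaled TPM counts 39 (3 gained), and fitting only the populations compared 28 of 34 (7 gained). The replicate block kept 42 of 42 and gained 0. Libraries with the same replicate number resembled each other no more than others did (mean r 0.00763 against -0.00346; same-number pairs from -0.113 to 0.135), so which libraries share a mouse could not be read from the data. Counts were low for *Wnt2*, *Wnt5b*, *Wnt9a*, *Wnt11* and *Rspo2*, at most 833, 239, 720, 74 and 311 in any library. The part of low counts in lost calls was not tested.

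The number of the 10 genes called moved by more than 1.5 times as follows; the cause was not tested. With DESeq2 it was 3 in CD81+ against CD90+ FB, 2 in CD81+ against colonic Fgfr2+ FB, 2 in small intestinal CD34+ against Fgfr2+ FB and 2 in PDGFRα hi FB between tissues. Without the filter it was 1 in CD81+ against CD90+ FB and 1 against colonic Fgfr2+ FB. With only the populations compared it was 4 in colonic PDGFRα hi against CD81+ FB, 2 in small intestinal CD34+ against Fgfr2+ FB, 2 in PDGFRα hi FB and 0 in pericytes between tissues, and 1 in SMC against pericytes.

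Leaving out 1 library at a time, the number ranged from 0 to 3 in CD81+ against CD90+ FB, 0 to 2 in CD81+ against colonic Fgfr2+ FB, 4 to 6 in colonic PDGFRα hi against CD81+ FB, 4 to 7 in colonic and 4 to 6 in small intestinal pericytes against the FB, 1 to 3 in SMC against pericytes, 0 to 1 in Fgfr2+ FB between tissues and 8 to 9 over the 10 populations. It stayed at 4 in small intestinal PDGFRα hi against CD34+ FB, at 2 against small intestinal Fgfr2+ FB, at 1 in small intestinal CD34+ against Fgfr2+ FB and in PDGFRα hi FB and pericytes between tissues, and at 0 for the difference in tissue differences. In colonic PDGFRα hi against Fgfr2+ FB it fell from 3 to 2 without any 1 of the 6 libraries.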
